A study of Rattus norvegicus with 60 samples.

Results

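Neutrophils are short-lived white blood cells that leave the bone marrow in response to granulocyte colony-stimulating factor and follow CXC chemokines into tissue, where they release granule proteins. The 9 genes described here cover that sequence in rat mesenteric adipose tissue and liver. S100a8 and S100a9 encode the subunits of calprotectin, an abundant cytosolic protein of neutrophils, and Mmp8 encodes the neutrophil collagenase of the granules. Csf3r is the receptor for granulocyte colony-stimulating factor, Cxcr2 the receptor for neutrophil-attracting chemokines, and Il1r2 the decoy receptor for interleukin-1. Trem1 and Trem3 are activating receptors of myeloid cells, Trem3 being known from rodents, and Cxcl1 is a ligand of Cxcr2. After stroke, innate immune cells are mobilised throughout the body, and both the liver and visceral fat are organs that such cells can enter. The genes were chosen by name as neutrophil markers and neutrophil attractants, and all 9 were found among the 34322 genes of the count files. They were chosen with earlier results of these data known. The shares of members called are therefore a description and no test against all genes.

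Sprague-Dawley rats were 5 months old when mesenteric fat and liver were taken. The PAE animals (prenatal alcohol exposure) were offspring of dams that breathed vaporized ethanol from gestational day 8 to 20, and the control animals were offspring of dams kept in room air. Within each exposure, stroke animals had undergone middle cerebral artery occlusion 2 days before tissue collection, and naive animals were littermates without stroke. The labels name no sham operation, so the effects of surgery and of the occlusion cannot be told apart. Each tissue had 30 libraries: 8 PAE stroke, 7 control stroke, 8 PAE naive and 7 control naive, with 4 females in each group, 4 males in the PAE groups and 3 males in the control groups. Total counts were 9.81 to 25.4 M per adipose library and 7.72 to 30.4 M per liver library, of which nuclear rRNA made 0.469% to 50.0% and 0.626% to 51.1%. The fat-cell gene Adipoq had 1203 to 4426 CPM (counts per 1000000 counts of the scaled library size) in adipose libraries, and the albumin gene Alb had 33628 to 73268 CPM in liver libraries, matching the tissue labels. The labels do not say how rats were distributed over litters, so p-values measure the spread between these animals.

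All 9 genes had low counts in these tissues. Their summed level was 9.41 to 63.2 CPM in stroke and 5.83 to 20.9 CPM in naive adipose libraries, and 3.52 to 36.2 CPM in stroke and 1.48 to 27.8 CPM in naive livers. Other neutrophil granule and receptor genes differed widely in level. Mpo, myeloperoxidase, had 39.2 to 160 CPM in stroke fat (median 61.4) and 13.4 to 128 CPM in naive fat (median 37.8), with counts in all adipose libraries, but at most 0.349 CPM in stroke and 0.184 CPM in naive livers. Elane, neutrophil elastase, reached at most 11 counts in an adipose library and 1 count in a liver library. Ltf, the lactoferrin gene, had no count in any liver library, and Camp, Cd177, Cxcr1, Fpr1 and Fpr2 had no more than 9 counts in any library of either tissue. In whole-tissue RNA, fewer cells of a type and less RNA per cell cannot be told apart. A member was tested in a tissue if its counts passed the expression filter: 8 of 9 passed in adipose tissue (not Mmp8) and 5 of 9 in liver (S100a9, Mmp8, Csf3r, Cxcr2 and Cxcl1).

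Promoter sequences in RefSeq (assembly GRCr8) were at hand for 7 of the 9 genes, all but S100a8 and Il1r2. The 250 bases before the start of 5 of them are shown because they cover the outcomes after stroke: S100a9 was higher in both tissues, Mmp8 was higher in liver and untested in fat, Trem3 was higher in fat and untested in liver, Cxcr2 was lower in fat and higher in liver, and Cxcl1 passed no stroke test. Capitals mark matches, on either strand, to a STAT motif (TTCNNNGAA), a C/EBP motif (TTNNGCAA), a TATA box (TATAAA), an NF-kappaB motif (the capitals of the Cxcl1 promoter, with any base as the fifth letter) or a PU.1 motif. The PU.1 motif searched is GAGGAAG.
S100a9, chr2:178490623-178490872, minus strand: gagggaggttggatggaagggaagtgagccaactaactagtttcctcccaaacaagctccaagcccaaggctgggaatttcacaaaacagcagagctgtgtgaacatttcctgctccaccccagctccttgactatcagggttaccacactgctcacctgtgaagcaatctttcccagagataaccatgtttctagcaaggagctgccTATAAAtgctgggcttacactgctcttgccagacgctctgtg
Mmp8, chr8:13008640-13008889, plus strand: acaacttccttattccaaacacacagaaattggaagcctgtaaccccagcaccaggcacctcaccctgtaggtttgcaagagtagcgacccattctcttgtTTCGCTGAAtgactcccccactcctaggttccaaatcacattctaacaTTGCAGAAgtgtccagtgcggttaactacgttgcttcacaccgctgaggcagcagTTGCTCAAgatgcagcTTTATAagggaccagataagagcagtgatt
Trem3, chr9:20257615-20257864, minus strand: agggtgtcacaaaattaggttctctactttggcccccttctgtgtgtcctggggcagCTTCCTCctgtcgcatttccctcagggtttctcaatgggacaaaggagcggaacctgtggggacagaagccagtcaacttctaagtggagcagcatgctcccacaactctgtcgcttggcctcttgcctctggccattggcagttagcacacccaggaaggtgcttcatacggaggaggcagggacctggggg
Cxcr2, chr9:83178395-83178644, plus strand: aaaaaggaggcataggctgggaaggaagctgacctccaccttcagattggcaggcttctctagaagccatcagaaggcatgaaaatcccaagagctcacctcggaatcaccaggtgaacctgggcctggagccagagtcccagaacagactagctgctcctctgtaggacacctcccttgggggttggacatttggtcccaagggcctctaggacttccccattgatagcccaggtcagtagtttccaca
Cxcl1, chr14:17479322-17479571, minus strand: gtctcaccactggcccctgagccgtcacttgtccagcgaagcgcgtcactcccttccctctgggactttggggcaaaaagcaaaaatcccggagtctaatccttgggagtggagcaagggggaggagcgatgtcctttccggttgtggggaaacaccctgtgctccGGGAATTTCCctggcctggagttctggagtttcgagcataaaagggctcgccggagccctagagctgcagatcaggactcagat
S100a9 held only a TATA box, 42 to 37 bases before its start. Mmp8 held a STAT match at 149 to 141 bases and C/EBP matches at 101 to 94 and 46 to 39 bases before its start. At 30 to 25 bases it held the TATA box letters on the opposite strand only, unlike S100a9, where they lie on the strand of the gene. Trem3 held a PU.1 match at 193 to 187 bases, Cxcl1 an NF-kappaB match at 84 to 75 bases, and Cxcr2 no match in this window. Of the 33469 promoters in the table, 7.67% hold the STAT motif, 9.22% the C/EBP motif, 10.2% the PU.1 motif, 0.314% the NF-kappaB motif and 12.9% the TATA box. No match overlapped another in these 5 promoters. The matches describe these letters and were not measured here as binding.

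In mesenteric adipose tissue, Trem3, S100a9, S100a8 and Trem1 rose after stroke and Cxcr2 fell when both exposures were averaged. That is 5 of the 8 tested members, 4 higher and 1 lower, where 18.4% of all 18546 tested genes were called (10.7% higher and 7.74% lower, edgeR quasi-likelihood test, adjusted p under 0.05). S100a8 and S100a9 reached at most 0.350 and 0.439 CPM in naive fat and passed the filter only through stroke libraries. The share of members called higher was therefore partly set by the filter. Among PAE animals 4 members were called (3 higher, 1 lower), beside 6.28% of all genes, and among control animals 2 members, both higher, beside 3.26% of all genes higher. The median log2 change of the 8 members was 1.15, with both exposures averaged, and it includes S100a8 and S100a9, which entered through stroke libraries.

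Trem3 had the smallest adjusted p of the tested members in fat. Its level in PAE stroke fat ranged from 4.47 to 14.7 CPM (median 7.05), and in control stroke fat from 3.22 to 18.3 CPM (median 8.47). In naive fat it was 1.12 to 3.02 CPM (median 1.87) in PAE animals and 0.716 to 4.06 CPM (median 1.62) in control animals. PAE stroke and PAE naive animals did not overlap, as was so for 0.345% of all genes with stroke higher, and in the control animals 6 of 7 stroke libraries lay above every naive one. The log2 change was 1.99 ± 0.28 (SE) in PAE animals (adjusted p = 0.000328) and 2.33 ± 0.30 in control animals (adjusted p = 0.000105), and 2.16 ± 0.20 with both averaged, a 4.47-fold higher level (edgeR adjusted p = 5.05e-07). Trem3 and Trem1 lie next to each other in the reference gene order, and so do S100a8 and S100a9. Whether reads that run across a gene boundary were assigned to a neighbour was not tested.

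**Figure D1:**
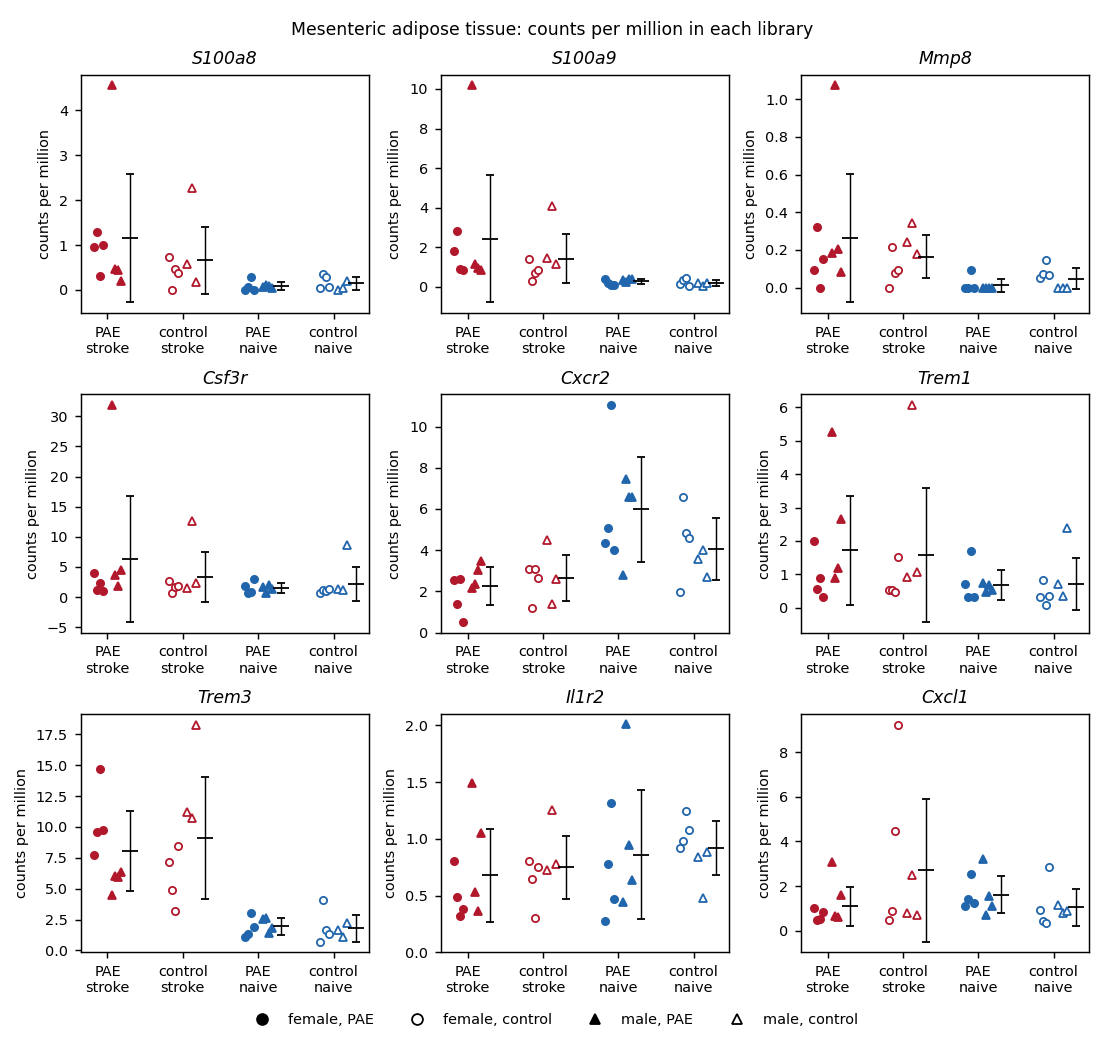
CPM of the 9 genes in each adipose library, by group (circles, females; triangles, males; filled, PAE; open, control; bars, mean ± SD). Trem3 stood at 3.22 to 18.3 CPM in stroke fat and 0.716 to 4.06 CPM in naive fat, Cxcr2 at 0.535 to 4.48 and 1.99 to 11.0 CPM, and 1 PAE stroke male was far above the others in S100a8, S100a9 and Csf3r.

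The calprotectin genes were near 0 in naive fat. S100a9 was at 0.840 to 10.2 CPM (median 1.06) in PAE stroke fat and 0.325 to 4.09 CPM (median 1.13) in control stroke fat, against 0.0785 to 0.420 CPM (median 0.304) in PAE naive fat and 0.0482 to 0.439 CPM (median 0.194) in control naive fat. All 8 PAE stroke libraries and 6 of 7 control stroke libraries were above every naive library of their exposure. In PAE animals 0.345% of all genes were separated in this way with stroke higher. S100a9 passed the filter only through stroke libraries, so its separation was partly set by the filter. The log2 change of S100a9 was 3.12 ± 0.59 in PAE animals (adjusted p = 0.00307) and 2.81 ± 0.64 in control animals (adjusted p = 0.0103, edgeR). The PAE change was 2.25 without PAE stroke male 1, and it was called in all 16 fits that left out 1 PAE library.

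S100a8 summed to 236 counts over the 8 PAE stroke libraries and 100 over the 7 control stroke libraries, against 10 and 16 counts in the PAE naive and control naive libraries. It rose in PAE animals, with a log2 change of 3.67 ± 0.90 (adjusted p = 0.00929), and had a log2 change of 2.29 ± 0.86 in control animals (adjusted p = 0.102, edgeR). PAE stroke male 1 held 150 of the 236 counts and control stroke male 2 held 60 of the 100. Without each of them the log2 change was 2.71 in PAE animals and 1.59 in control animals, and the PAE change was called in all 16 fits that left out 1 PAE library. The difference between the 2 exposures, 1.37 ± 1.25, did not pass the test (adjusted p = 0.863). Mmp8, the granule collagenase, was too low for a test: it summed to 55 and 22 counts in the PAE stroke and control stroke libraries, against 1 and 5 counts in the PAE naive and control naive libraries. Of the 15 naive libraries, 10 had no Mmp8 count, and a count of 0 still allows 3.

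Among the receptors, Cxcr2 went the other way. It ranged from 0.535 to 3.49 CPM (median 2.47) in PAE stroke fat and from 1.19 to 4.48 CPM (median 2.63) in control stroke fat, against 2.82 to 11.0 CPM (median 5.82) in PAE naive fat and 1.99 to 6.58 CPM (median 4.00) in control naive fat. In PAE animals 6 of 8 stroke libraries were below every naive one, and in control animals 2 of 7 were. Cxcr2 fell by 1.42 ± 0.31 on the log2 scale in PAE animals (adjusted p = 0.0102), its log2 change was -0.55 ± 0.33 in control animals (adjusted p = 0.356), and with both averaged it fell by 0.98 ± 0.23, to 0.505 times the naive level (edgeR adjusted p = 0.00449). The stroke change in PAE animals minus that in control animals was -0.87 ± 0.46 (adjusted p = 0.791), so a difference between the exposures was not shown.

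Csf3r and Trem1 varied widely within the stroke groups. Csf3r was at 1.07 to 31.9 CPM (median 3.03) in PAE stroke fat and 0.757 to 12.6 CPM (median 1.88) in control stroke fat, against 0.652 to 3.06 CPM (median 1.51) in PAE naive and 0.716 to 8.64 CPM (median 1.12) in control naive fat. The groups overlapped, and the averaged log2 change of 1.14 ± 0.42 did not pass (edgeR adjusted p = 0.0587). Trem1 was at 0.306 to 5.26 CPM (median 1.04) in PAE stroke and 0.460 to 6.07 CPM (median 0.915) in control stroke fat, against 0.314 to 1.70 CPM (median 0.608) in PAE naive and 0.0731 to 2.39 CPM (median 0.338) in control naive fat. Its averaged log2 change of 1.16 ± 0.40 passed (adjusted p = 0.0426), but the call was lost in 17 of 30 fits that each left out 1 library.

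The high values came from 2 stroke libraries, PAE stroke male 1 and control stroke male 2, and 1 naive library, control naive male 3. Csf3r was 31.9, 12.6 and 8.64 CPM there, and Trem1 was 5.26, 6.07 and 2.39 CPM. The summed level of 16 macrophage markers was also highest in these 3 libraries, at 1895, 2960 and 1785 CPM, against medians of 1083 CPM in stroke and 878 CPM in naive fat. Other lists had high maxima in the same groups. Summed over 18 neutrophil granule genes, the maximum was 1224 CPM in PAE stroke, 621 in control stroke and 1903 in control naive fat (medians 336, 222 and 118). For 31 neutrophil receptor and signalling genes it was 885, 728 and 1078 CPM (medians 358, 287 and 248). The part of these lists in the result was not tested. Without the 2 stroke libraries, a setting added after seeing the data, 4 members were called. Trem3 then had a log2 change of 2.22 ± 0.22, S100a9 of 2.33 ± 0.30, S100a8 of 2.15 ± 0.49 and Cxcr2 of -0.88 ± 0.23, and Trem1 of 0.63 ± 0.37 was no longer called (adjusted p = 0.253). Csf3r then had a log2 change of 0.34 ± 0.32, and leaving out control naive male 3 alone instead gave 1.54 (adjusted p = 0.0119, edgeR).

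Il1r2 and Cxcl1 did not pass the test in fat. Il1r2 ranged from 0.307 to 1.49 CPM in stroke fat and from 0.280 to 2.01 CPM in naive fat, with a log2 change of -0.27 ± 0.25 (95% interval -0.76 to 0.22). Cxcl1 ranged from 0.469 to 9.22 CPM in stroke fat and from 0.365 to 3.19 CPM in naive fat, with a log2 change of 0.25 ± 0.39 (95% interval -0.51 to 1.003). Its log2 change was -0.64 ± 0.53 in PAE animals and 1.13 ± 0.56 in control animals, and the difference of -1.78 ± 0.77 did not pass after adjustment (adjusted p = 0.791, edgeR).

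In liver, S100a9, Mmp8, Csf3r and Cxcr2 rose after stroke with both exposures averaged, and Cxcl1 did not pass. That is 4 of the 5 tested members, all higher, where 14.4% of all 15889 tested genes were called and 8.55% were higher. S100a9, Mmp8 and Cxcr2 reached at most 0.326, 0.273 and 0.326 CPM in naive livers and passed the filter only through stroke livers. The share of members called higher was therefore partly set by the filter and is no test against all genes. Among PAE animals 4 members were called, all higher, beside 4.74% of all genes higher, and among control animals 3 members beside 2.95% of all genes. The median log2 change of the 5 members was 1.85. It includes S100a9, Mmp8 and Cxcr2, which entered through high stroke livers, and does not describe all 9 genes.

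S100a9 ranged from 0.172 to 1.58 CPM (median 0.644) in PAE stroke livers and from 0.205 to 1.22 CPM (median 0.486) in control stroke livers, against 0 to 0.291 CPM (median 0.0983) in PAE naive and 0 to 0.326 CPM (median 0.122) in control naive livers. Of the 15 stroke livers, 12 were above every naive liver. The averaged log2 change was 2.51 ± 0.47 (edgeR adjusted p = 8.55e-05), or 5.72-fold. These levels rest on few reads, 2 to 24 counts per stroke library and 0 to 7 counts per naive library.

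Mmp8 had 68 counts over the PAE stroke livers and 35 over the control stroke livers, against 8 and 5 counts over the PAE naive and control naive livers. Every stroke liver had at least 1 count, and 8 of the 15 naive livers had none. The averaged log2 change was 3.09 ± 0.67 (adjusted p = 0.000123). S100a8 was below the filter, with 32 and 15 counts in the PAE stroke and control stroke livers, against 5 and 5 counts in the PAE naive and control naive livers.

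Csf3r, the growth factor receptor, ranged from 0.882 to 4.89 CPM (median 2.35) in PAE stroke and from 1.23 to 3.49 CPM (median 1.90) in control stroke livers, against 0.383 to 1.60 CPM (median 0.848) in PAE naive and 0.245 to 1.31 CPM (median 0.903) in control naive livers. The groups overlapped at their edges, with 11 of 15 stroke livers above every naive one. The log2 change was 1.47 ± 0.31 in PAE animals (adjusted p = 0.00337) and 1.41 ± 0.35 in control animals (adjusted p = 0.0202), and 1.44 ± 0.23 averaged (edgeR adjusted p = 7.16e-05).

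Cxcr2, which fell in fat, rose in liver. It had 53 and 36 counts over the PAE stroke and control stroke livers, against 13 and 15 counts over the PAE naive and control naive livers. The averaged log2 change was 1.85 ± 0.52 (adjusted p = 0.00951). It was 2.22 ± 0.72 in PAE animals (adjusted p = 0.0342) and 1.47 ± 0.77 in control animals (adjusted p = 0.317, edgeR). Of 16 fits that each left out 1 PAE library, 6 lost the PAE call (adjusted p up to 0.0667) and 3 left Cxcr2 below the filter, as did a fit of only the PAE livers.

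**Figure D2:**
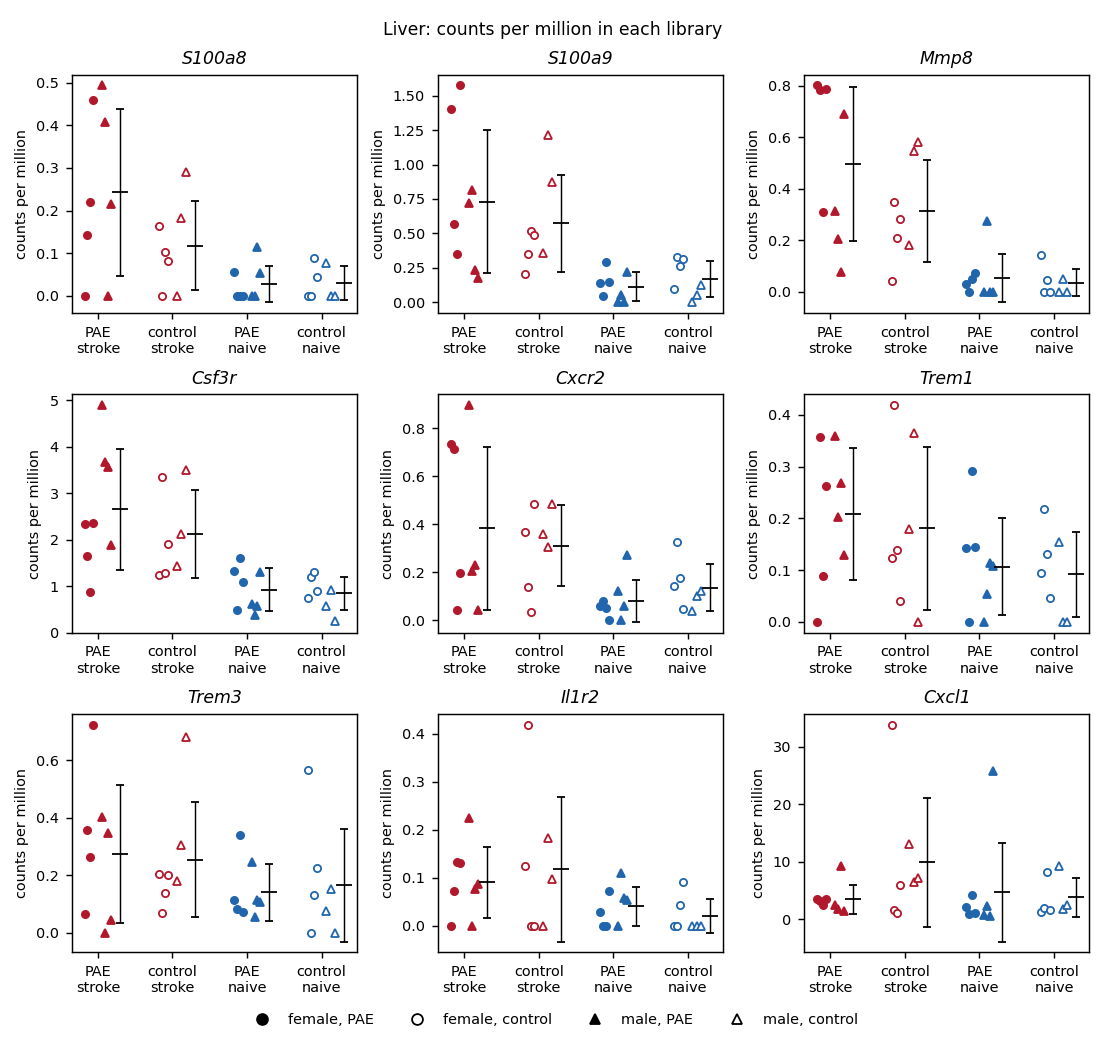
CPM of the 9 genes in each liver library, by group (circles, females; triangles, males; filled, PAE; open, control; bars, mean ± SD). Csf3r stood at 0.882 to 4.89 CPM in stroke livers and 0.245 to 1.60 CPM in naive livers, and Cxcl1 was highest in 1 control stroke female (33.8 CPM) and 1 PAE naive male (25.7 CPM).

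Cxcl1, the chemokine, varied more between animals of one group than between groups. It ranged from 1.38 to 9.24 CPM (median 2.79) in PAE stroke and from 1.11 to 33.8 CPM (median 6.38) in control stroke livers, against 0.456 to 25.7 CPM (median 1.59) in PAE naive and 1.28 to 9.17 CPM (median 1.85) in control naive livers. The averaged log2 change was 0.57 ± 0.56 (95% interval -0.54 to 1.67, edgeR adjusted p = 0.569). Its stroke change was -0.16 ± 0.78 in PAE animals and 1.30 ± 0.82 in control animals. Without control stroke female 1 and PAE naive male 4, the 2 highest libraries, these were 1.18 ± 0.57 and 0.37 ± 0.57. The order of the exposures then turned round, in a setting added after seeing the data.

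The remaining members were below the filter in liver and are given as counts. Trem1 had 51 counts over the 15 stroke livers and 30 over the 15 naive livers, Trem3 had 70 and 48, and Il1r2 had 28 and 9. These genes were not tested in the fit of the liver libraries, so neither a change nor its absence is read from these counts.

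The control stroke male livers held 17.9% to 51.1% nuclear rRNA, against 1.54% to 44.9% in the control naive males, and the part of this difference in the results was not tested. Leaving out the libraries above 40% kept the 4 averaged calls in liver and left 2 calls among control animals, without Mmp8 (edgeR adjusted p = 0.0646). Between 0 and 3 members were called when 1 library of the control livers was left out. The count was 0 without control naive male 1, and 1 without control naive male 2 or 3 or control stroke male 2 or 3.

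**Figure D3:**
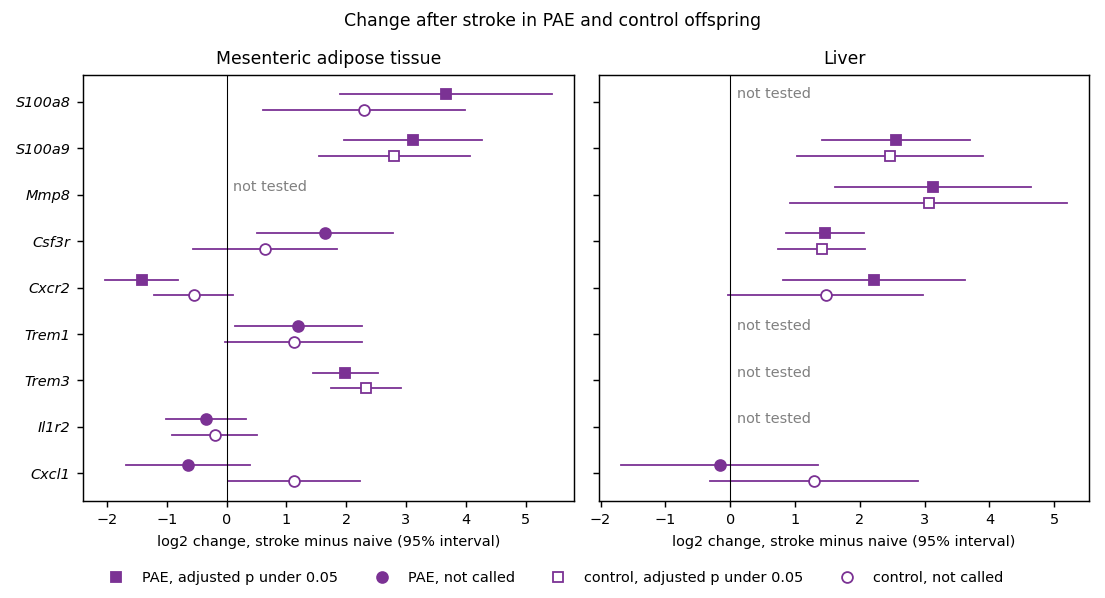
Log2 change after stroke (stroke minus naive) with its 95% interval for each gene, in PAE (filled) and control (open) animals, in adipose tissue and liver (squares, adjusted p under 0.05; circles, not called). S100a9 was called in all 4 comparisons, but its control liver call was lost in 3 of 14 fits that each left out 1 library. Cxcr2 was at -1.42 in PAE adipose tissue and 2.22 in PAE liver.

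The direct comparison of PAE with control animals called none of the members in either tissue, among naive or among stroke animals, and edgeR called no gene at all (0.00% of genes in each of the 4 comparisons). DESeq2 called 5 genes in naive fat, 1 in stroke fat, 0 in naive livers and 5 in stroke livers, and 0 members in all 4 comparisons. Unadjusted p was under 0.05 for 1 of 8 members in stroke fat and 0 members in the other 3 comparisons. That member was Cxcl1, at 1.10 ± 0.873 CPM in PAE stroke fat and 2.71 ± 3.20 CPM in control stroke fat (SD, n = 8 and 7), a log2 difference of -1.13 ± 0.54 (adjusted p = 0.9999, edgeR). Among naive adipose libraries, Cxcr2 averaged 5.99 ± 2.56 CPM in PAE and 4.04 ± 1.51 CPM in control animals (SD, n = 8 and 7), a log2 difference of 0.61 ± 0.32 with a 95% interval of -0.01 to 1.23. Among stroke animals, S100a8 differed by 0.78, S100a9 by 0.74 and Csf3r by 0.62 on the log2 scale in fat (PAE minus control, edgeR adjusted p = 0.9999 each). Without PAE stroke male 1, these 3 differences were -0.18, -0.13 and -0.20. In fat, PAE stroke males held 0.469% to 2.44% nuclear rRNA and control stroke males 12.6% to 17.5%. The stroke females overlapped, at 11.9% to 28.0% in PAE and 9.08% to 30.4% in control animals. The part of nuclear rRNA in these differences was not tested.

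Whether the stroke change itself differed between PAE and control animals was tested as an interaction, which called no member and no gene in either tissue (0.00%). Unadjusted p was under 0.05 for 1 of 8 adipose members (Cxcl1) and 0 of 5 liver members, and DESeq2 called 0 members in either tissue. The 95% intervals were wide. For S100a9 the interval was -1.39 to 2.02 in fat and -1.74 to 1.93 in liver, and for Trem3 in fat it was -1.14 to 0.45.

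A difference of the stroke change between the sexes was not shown for any member. edgeR called 0 adipose genes (0.00%) and 0.126% of liver genes, none of them a member, and DESeq2 called 14 adipose and 88 liver genes and 0 members. Unadjusted p was under 0.05 for 0 of 8 adipose members and 2 of 5 liver members. The log2 change of Csf3r was 2.11 ± 0.35 in males and 0.77 ± 0.30 in females, a difference of 1.34 ± 0.46 (adjusted p = 0.430), and for S100a9 it was 3.38 ± 0.80 in males and 1.65 ± 0.49 in females, a difference of 1.73 ± 0.94 (adjusted p = 0.682, edgeR). In liver Csf3r was at 1.44 to 4.89 CPM in stroke males and 0.245 to 1.30 CPM in naive males, and at 0.882 to 3.35 CPM in stroke females and 0.490 to 1.60 CPM in naive females. S100a9 was at 0.172 to 1.22 CPM in stroke male livers and 0.205 to 1.58 CPM in stroke female livers. Naive male livers held 7 S100a9 counts in total, with 3 of 7 libraries at 0, and naive female livers held 32.

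In fat, the male minus female differences were 1.59 for S100a8, 1.09 for S100a9, 1.10 for Csf3r and 0.92 for Trem1 on the log2 scale (adjusted p = 0.972 each). They became -0.064, -0.17, -0.49 and -0.14 without PAE stroke male 1 and control stroke male 2. Trem3 changed by 2.26 ± 0.29 in males and 2.06 ± 0.28 in females. Cxcr2 had a log2 change of -0.68 ± 0.33 in males and -1.29 ± 0.31 in females.

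Set side by side in naive animals, the tissues held these genes at different levels. Cxcr2, Trem3 and Trem1 were higher in adipose tissue than in liver, and Cxcl1 was lower. In a fit of all 60 libraries that called 83.8% of 19686 genes, the adipose minus liver log2 difference was 4.71 ± 0.44 for Cxcr2 (adjusted p = 4.11e-16), 2.68 ± 0.35 for Trem3 (adjusted p = 8.21e-11), 1.84 ± 0.52 for Trem1 (adjusted p = 0.000536) and -2.53 ± 0.50 for Cxcl1 (edgeR adjusted p = 1.31e-05). Mmp8 and Il1r2 were also called but had groups without any count, so no fold is given. Il1r2 had 208 counts in naive fat and 9 in naive liver. Mmp8 had 6 counts in naive fat and 13 in naive liver, and its call was lost without liver PAE naive male 2 or without liver control naive male 2 (edgeR adjusted p = 0.9999 each). S100a8, S100a9 and Csf3r did not pass, with differences of 0.62 ± 0.85, 0.17 ± 0.55 and 0.08 ± 0.37. Scaling by RLE in place of TMM moved these tissue differences up by a median of 0.121 on the log2 scale, and the 7 differences given kept their direction.

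**Figure D4:**
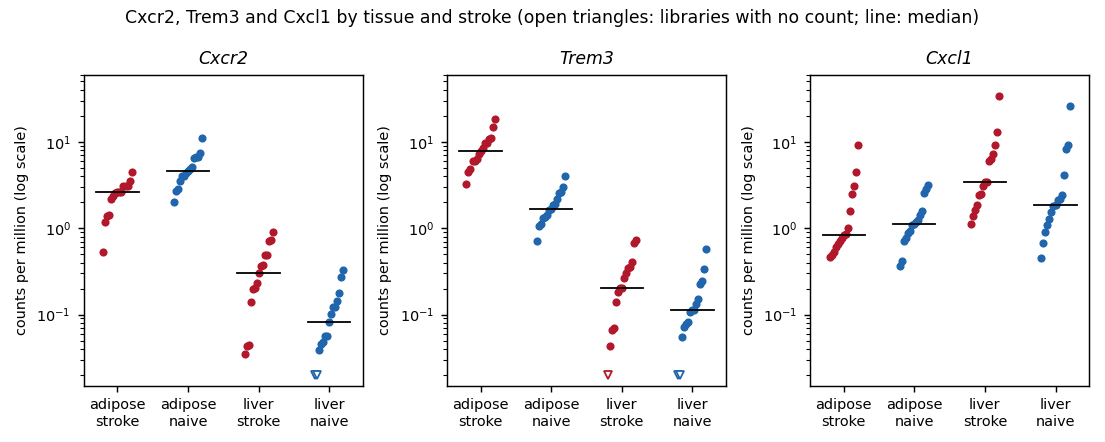
Cxcr2, Trem3 and Cxcl1 in each library (CPM on a log scale, scaled within each tissue), for stroke and naive animals of adipose tissue and liver, with the median as a line. Cxcr2 was at 0.535 to 4.48 CPM in stroke and 1.99 to 11.0 CPM in naive fat, and at 0.0345 to 0.897 CPM in stroke and 0 to 0.326 CPM in naive liver.

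The stroke change of Cxcr2 differed between the tissues: the adipose change minus the liver change was -2.85 ± 0.55 on the log2 scale (edgeR adjusted p = 0.000235), in a comparison that called 7.99% of all genes. It was between -3.08 and -2.53 in 60 fits that left out 1 library each. Il1r2 was called too (adjusted p = 0.0190), with a group at 0 counts and therefore no fold. Its call was lost with the shared title code as a block (adjusted p = 0.0517) and without liver control stroke male 2 (adjusted p = 0.0842, edgeR). It had 233 counts in stroke and 208 in naive fat, and 28 in stroke and 9 in naive liver. For Trem3 the difference was 1.29 ± 0.45 (edgeR adjusted p = 0.0794), which passed with DESeq2 (adjusted p = 0.0431) and without a sex term (adjusted p = 0.0475). S100a9 changed by 2.96 ± 0.44 in fat and 2.51 ± 0.47 in liver, and the difference in the joint fit was 0.41 ± 0.65 with a 95% interval of -0.87 to 1.69, so neither a larger nor a smaller change in fat was shown. Of the calls over all genes, 861 were higher and 712 lower in fat than in liver, but 646 higher and 906 lower with RLE scaling.

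The members did not vary together as one block between animals of the same group. Correlations of log2 CPM after subtracting the means of the 8 groups, over 30 libraries of a tissue, describe this and share library depth and tissue composition. In adipose tissue r was 0.75 between S100a8 and S100a9, 0.66 between Csf3r and Trem1 and 0.63 between S100a9 and Csf3r. Csf3r had r = 0.00 with Trem3 and -0.13 with Cxcr2. In liver r was 0.58 between S100a9 and Csf3r and 0.44 between Csf3r and Cxcr2.

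Over all genes, the closest match to Csf3r in fat was Cotl1 (r = 0.92), followed by Tifab (0.91) and Cyba (0.91), the last a subunit of the phagocyte NADPH oxidase. Trem1 was closest to Fuca1 (0.89), Snx1 (0.86) and Lgmn (0.86), of which Fuca1 and Lgmn encode lysosomal enzymes. Trem3 was closest to Pnpt1 (0.77), Slc33a1 (0.75) and Tm7sf2 (0.73), Cxcr2 to Apoa5 (0.75), Il1r2 to the monocyte marker Cd14 (0.75), and Cxcl1 to the immediate-early gene Fos (0.84). In liver, Csf3r was closest to Siglec5 (0.73), and Cxcl1 to the transcription factor gene Stat3 (0.74).

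Other neutrophil genes were counted from the same fits. Of 18 granule genes, 5 were tested in fat and 2 rose, and 3 were tested in liver and 2 rose. Lcn2, a granule protein that hepatocytes and fat cells also secrete, averaged 64.9 ± 112 CPM in stroke and 7.64 ± 8.82 CPM in naive fat, a log2 change of 2.43 ± 0.40 (adjusted p = 0.000388). The rise was not even over the stroke libraries, whose median was 16.3 CPM and highest value 438 CPM, against a naive median of 5.47 CPM. Lcn2 was called in PAE fat (3.38 ± 0.56, edgeR adjusted p = 0.00228) but not in control fat. In liver it averaged 101 ± 80.8 CPM in stroke and 2.17 ± 2.52 CPM in naive animals (SD, n = 15 each), a log2 change of 5.50 ± 0.53 (edgeR adjusted p = 1.97e-06). Mpo rose by 0.74 ± 0.25 in fat (adjusted p = 0.0396) and had no count in 9 of 15 stroke livers and 14 of 15 naive livers. Lyz2, a lysozyme shared with macrophages, rose by 0.61 ± 0.15 in liver (adjusted p = 0.00716).

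Of 31 genes for neutrophil receptors and signalling, 28 were tested in fat, where Clec4d (log2 change 1.47 ± 0.42, adjusted p = 0.0165) and Lyn (0.42 ± 0.14, adjusted p = 0.0426) rose, and 23 in liver, where Fgr (0.59 ± 0.17, adjusted p = 0.0214) rose. Lyn and Fgr are Src-family kinases of myeloid cells. The median log2 change of these genes was 0.22 in fat and -0.03 in liver. Counts of lists are set beside 18.4% of all genes called in fat and 14.4% in liver. The lists were chosen with earlier results of these data known, so this is a description and no test.

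Among 20 other attractants and growth factors, 11 were tested in fat. Cxcl2, another Cxcr2 ligand, rose by 1.46 ± 0.51 (adjusted p = 0.0373), Ccl3 by 0.89 ± 0.24 (adjusted p = 0.0114) and Tnf by 0.87 ± 0.27 (adjusted p = 0.0274), while Cxcl12, which retains neutrophils in marrow, fell by 0.60 ± 0.14 (edgeR adjusted p = 0.00553). In liver 9 were tested and Tnf rose by 0.75 ± 0.26 (adjusted p = 0.0445). Csf3, which encodes granulocyte colony-stimulating factor, had at most 23 counts in any library.

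In the interleukin-1 and TREM families, 4 of 14 tested genes rose in liver and 2 of 16 in fat. In liver these were Il1rn, the interleukin-1 receptor antagonist (log2 change 1.65 ± 0.23, adjusted p = 2.95e-05), the signalling receptor Il1r1 (0.94 ± 0.13, adjusted p = 1.52e-05), Irak3 (0.52 ± 0.14) and Il18 (0.50 ± 0.12). In fat Irak3 (0.18 ± 0.05) and Il1rap (0.19 ± 0.06) rose.

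Markers of other cell types were counted in the same fits. In fat 6 of 15 tested macrophage genes rose (Cd163, Vsig4, C1qb, Marco, Mrc1 and C1qc), with Cd163 at a log2 change of 0.75 ± 0.17 (edgeR adjusted p = 0.00387), and in liver none of 16 was called. Marco averaged 10.6 ± 34.1 CPM in stroke and 0.142 ± 0.240 CPM in naive fat, and Vsig4 6.24 ± 10.3 and 1.92 ± 0.84 CPM (SD). For both genes the stroke SD exceeded the mean, so the rise was not even over the stroke libraries. None of 9 T and NK cell genes and none of 8 B and plasma cell genes was called in fat, nor were any of 6 and 7 in liver. In liver 6 of 10 hepatocyte genes were called, with Serpina1, Arg1, Apoa1, Fgb and Tf higher and Cyp2e1 lower. In fat 3 of 7 endothelial genes were called (Stab2 higher, Tek and Cdh5 lower), as were 2 of 8 adipocyte genes (Retn higher, Adipoq lower, by -0.49 ± 0.12 on the log2 scale). The stroke SD of Stab2 also exceeded its mean (10.1 ± 30.2 CPM, against 1.04 ± 0.36 CPM in naive fat). Kit, a mast and progenitor cell receptor, was lower in fat (-0.67 ± 0.14) and in liver (-0.65 ± 0.12). In fat, PAE stroke male 2 stood apart in B and plasma cell genes, at a summed 480 CPM against a median of 9.57 CPM in stroke fat. That library also had the highest adipose Mmp8 level, 1.07 CPM. The part of these markers in the members' results was not tested.

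The headings of the authors' deposited tables name the groups compared but not which was on top of the fold change. For Trem3 in fat, the authors' deposited table lists log2 fold changes of 1.69 in PAE animals and 1.41 in control animals. For S100a9, the authors' deposited table lists 1.505 and 1.17 in fat and 1.42 and 0.79 in liver, in PAE and control animals, the last with an adjusted p of 0.0837. For Cxcr2 in PAE animals, the authors' deposited table lists -1.06 in fat (adjusted p = 0.000819) and 0.90 in liver (adjusted p = 0.0419). For Csf3r in PAE fat, the authors' deposited DESeq2 table lists 0.91 (adjusted p = 0.0245). There the edgeR fit gave 1.64 and did not call it (adjusted p = 0.0842), while the DESeq2 alternative gave 1.63 and did (adjusted p = 0.0360). The deposited values given here are closer to 0 than those of the edgeR fit.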

How the data were processed

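Total RNA was sequenced after ribosomal RNA depletion with a stranded kit, per the labels' protocols. The tools named in the submitters' processing notes are Trimmomatic, HISAT2, HTSeq and DESeq2, and the genome build is rn7. Versions, settings and the use of strand are not given in the sources used here. The deposited files hold raw counts per gene, made by the authors, for 60 libraries. The authors also deposited tables with log2 fold changes and adjusted p-values for their comparisons; 90 columns of normalised counts in them were not used.

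The 9 members and all other gene lists were chosen with earlier results of these data known. Each tissue was fitted separately in edgeR 4.0.16 (R 4.3.3): TMM scaling, filterByExpr by 8 groups of exposure, stroke and sex (minimum count 10), then robust quasi-likelihood tests with the sexes averaged. Tests were two-sided, with Benjamini-Hochberg adjustment over all tested genes. Comparisons between tissues used 1 fit of all 60 libraries with 16 groups. CPM are counts per 1000000 of the TMM-scaled library size within a tissue. SE and 95% intervals come from the fit's variance (normal interval). Likeness used log2 CPM with a prior count of 2 for members with a mean of at least 10 counts. All members are named; from other lists, up to 6 called genes with the smallest p per comparison. DESeq2 1.42.0, RLE scaling, no count filter, no sex term, removal of 76 nuclear rRNA genes, left-out libraries and blocks were the alternatives. The 84 within-group library pairs differed beyond counting noise (chi-square per degree of freedom 22.8 to 772). Intervals cover these libraries only, and counts of the low genes limit their precision.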

Additional observations from a re-analysis of the deposited data

Results flagged for a closer look

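In groups of 4 animals of 1 sex, 13 of 107 groups (12.1%) had a library far from the other 3. The limit used gives about 1 in 20 for normally distributed values, which CPM of low-count genes need not be. Groups with no library above 3 counts were among the 107 but could not be flagged, so no excess over chance is read from this share. In fat, PAE stroke male 1 was highest in S100a8 (4.56 CPM), S100a9 (10.2 CPM) and Csf3r (31.9 CPM), and the next males of its group had 0.474, 1.14 and 4.45 CPM. PAE stroke male 2 was highest in Mmp8 (1.07 CPM, 34 counts), PAE naive female 3 in Cxcr2 (11.0 CPM) and control stroke female 4 in Trem1 (1.51 CPM).

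In liver, Cxcl1 had a library apart in 4 groups: PAE stroke male 3 (9.24 CPM), control stroke female 1 (33.8 CPM), PAE naive male 4 (25.7 CPM) and control naive female 3 (8.24 CPM). Mmp8 was lowest in PAE stroke female 3 (0.309 CPM, 7 counts) and highest in PAE naive male 2 (0.273 CPM, 5 counts), and Trem3 was highest in PAE naive female 3 (0.339 CPM, 7 counts).

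The stroke change of Cxcr2 differed between the tissues, by -2.85 on the log2 scale (adipose minus liver, tested in the fit of all libraries with edgeR).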

How the results depend on the processing

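Of 517 member log2 values under other settings, 491 kept their direction and side of the threshold, as did 1610 of 1674 with 1 library left out. Without a sex term S100a9, Mmp8 and Cxcr2 did not pass the count filter in liver, and 1 member was called with both exposures averaged, 1 in PAE and 0 in control animals. With only the libraries of the comparison 1 member was called in control livers, S100a9 and Mmp8 being untested. With 1 library left out, 0 to 3 members were called in control livers, and 1 to 3 for the tissue difference of the stroke change. Same-numbered libraries within a tissue had r from -0.594 to 0.378 (median 0.103 in liver and 0.0746 in fat), so the numbers were not taken as pairs. Libraries of the same title code in the 2 tissues had r from 0.00756 to 0.275 (median 0.105, 30 pairs, all positive), and the labels do not say whether they share an animal. With the replicate number within sex as a block, 4 members were called in fat (Trem1 adjusted p = 0.106, edgeR) and 3 in PAE livers (Cxcr2 adjusted p = 0.0647), and with the title code as a block 1 for the tissue difference (not Il1r2).

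Trem1 in fat was lost in 17 of 30 fits without 1 library, without a count filter (adjusted p = 0.0629) and without libraries over 40% rRNA (0.0551), and Csf3r in fat was called by DESeq2 (0.0285). With no filter Mmp8 was called in fat (edgeR adjusted p = 0.00235) and S100a8 in liver (0.0205). Mmp8 in control livers was lost in 9 of 14 fits without 1 library.

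Directions turned only for values that had not passed. Without PAE stroke male 1 and control stroke male 2 of fat, the log2 change was -0.13 for Cxcl1 (both exposures) and -0.14 for Csf3r (control). The male minus female differences were then -0.064 (S100a8), -0.17 (S100a9), -0.49 (Csf3r) and -0.14 (Trem1), and the tissue differences of the stroke change -0.10 (S100a8), -0.22 (S100a9) and -0.37 (Trem1). In naive animals the tissue difference was -0.12 for S100a9 with no sex term, and for Csf3r -0.12 with the title code as a block and -0.0079 without libraries over 40% rRNA. For liver Cxcl1, leaving out control stroke female 1 and PAE naive male 4 gave an interaction of 0.81 and a PAE change of 1.18. That setting was added after seeing the data. The replicate block gave a PAE change of 0.68 for liver Cxcl1. The cause was not tested.

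With 1 library left out, PAE minus control in stroke fat ranged from -0.18 to 1.48 (S100a8), -0.13 to 1.13 (S100a9) and -0.20 to 1.40 (Csf3r), and the control change of Csf3r in fat from -0.14 to 1.43. The naive tissue difference ranged from -0.034 to 0.58 (S100a9) and -0.30 to 0.19 (Csf3r). The tissue difference of the stroke change ranged from -0.057 to 1.07 (S100a8), -0.027 to 0.62 (S100a9), -0.71 to 0.090 (Csf3r), -0.84 to 0.55 (Trem1) and -0.97 to 0.16 (Cxcl1). The PAE change of liver Cxcl1 ranged from -0.69 to 1.18.

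Over all genes, DESeq2 called 1332 in control fat (edgeR 783) and 745 in control livers (edgeR 468), and without a sex term edgeR called 446 and 225. In PAE fat, 1165 calls became 741 without a filter, 611 with only the libraries compared and 702 without libraries over 40% rRNA, and in PAE livers 1112 became 580 without a sex term. The tissue difference gave 1573 calls and 1046 without a sex term. The sex difference of the stroke change in liver gave 20 calls, 88 with DESeq2, 12 without the pair of libraries highest in Cxcl1 and 0 without libraries over 40% rRNA. For PAE against control, DESeq2 called 5 genes in naive and 1 in stroke fat and 5 in stroke livers, and edgeR 0. In control fat 604 calls were higher and 179 lower, and 847 and 485 with DESeq2. Low counts, such as 0 to 16 per liver library for Mmp8, limit what could be detected.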
